A study of Mus musculus with 18 samples.

Results

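The proteins that start, extend and end polypeptide synthesis on the ribosome were followed at the RNA level in single mouse 2-cell embryos. The genes were chosen by name: platform symbols beginning with Eif1 to Eif6 or Eef1 to Eef2, together with Etf1, Gspt1 and Gspt2, leaving out the Eif2ak kinases and pseudogene symbols. This gave 60 genes of the 19935 that the array measures with a probe set naming 1 gene alone, and each gene is represented by its brightest such probe set. Probe positions were not used, so it was not checked whether a chosen probe set lies in the gene itself or in a processed copy of it, which bears on Eif2s2, Eif3m, Eif4a1, Eif4e, Eif4e1b and Eif5a, for which a dimmer probe set names the same gene alone. The 60 genes were sorted by symbol into 11 classes, each named for a role that not every gene in it need have. The classes hold 4 genes of start codon selection, 5 of eIF2 and initiator tRNA delivery, 5 eIF2B subunits and 11 eIF3 subunits. Cap binding and the associated helicases have 12 genes, besides 3 repressors that bind eIF4E, 3 factors of ribosomal subunit joining and 2 eIF5A genes. The rest are 6 elongation factor genes, 6 modifiers of elongation factors and 3 release factors. The classes are not whole complexes: Eif1, Eif2s1, Eif3g, Eif4g1 and Eef1g are not among the 60. Eif3j1 and Eif3j2 are named only together and are left out as well.

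Initiation begins when eIF2, carrying GTP and the initiator methionyl-tRNA, joins the small ribosomal subunit together with eIF1, eIF1A, eIF3 and eIF5, while eIF4E, eIF4G and the helicase eIF4A bring in the capped messenger RNA. After start codon recognition eIF2 leaves as its GDP form and eIF2B recharges it with GTP, a step that is blocked when eIF2 is phosphorylated. eEF1A and eEF2 then drive elongation, and eRF1 with eRF3 ends it at a stop codon. The fertilized mouse egg starts with ribosomes and messenger RNA stored by the oocyte, and its own genome becomes broadly active at the 2-cell stage.

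Each of the 18 arrays holds the amplified cDNA of 1 embryo. The 9 Parg(110)-/+ embryos had a Parg(110)-/- father and a wild-type mother and were heterozygous for loss of exons 2 and 3 of Parg, which encodes the main enzyme that degrades poly(ADP-ribose); the 9 WT embryos had wild-type parents. All mice were of the 129SVE background (129S6/SvEvTac), matings were natural, and fathers PargA, PargB and PargC and fathers WT1, WT2 and WT3 gave 3 embryos each, written as father and number (PargB-1). An effect of the father's sperm and one of the embryo's own heterozygous genotype cannot be told apart in this design. Values are RMA log2 levels on the Affymetrix Mouse Gene 1.0 ST array; a difference of 1 is a 2-fold change, and levels of different probe sets are not comparable.

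Array medians ran from 6.44 to 6.53 in the Parg(110)-/+ embryos and from 6.34 to 6.49 in the WT embryos, and pairs of arrays correlated at 0.924 to 0.958. Parg itself ranged from 9.37 to 10.83 (median 10.26) in the Parg(110)-/+ embryos, against 9.55 to 10.89 (median 10.62) in the WT embryos. Its probe set is not resolved by exon here, so it does not check the genotype. All 10 maternal oocyte transcripts on the marker list were bright, with group means of 9.56 to 12.12 in the Parg(110)-/+ embryos and 9.61 to 12.09 in the WT embryos. Of 7 transient 2-cell genes 3 were matched, at group means of 7.69 to 10.66 in the Parg(110)-/+ embryos and 7.80 to 10.37 in the WT embryos. Of the markers of other cells, 4 of 6 blood genes were matched. Their mean log2 level per embryo was 5.09 to 5.23 in the Parg(110)-/+ embryos and 4.97 to 5.15 in the WT embryos. In the same way 6 of 8 genes of cumulus, granulosa and oviduct cells gave 5.92 to 6.32 in the Parg(110)-/+ embryos and 5.75 to 6.03 in the WT embryos, where Inhba reached 8.42 in 1 Parg(110)-/+ embryo, against at most 6.51 in the WT embryos. Likewise 6 of 6 spermatid genes gave 6.02 to 6.23 in the Parg(110)-/+ embryos and 5.84 to 6.32 in the WT embryos. Among them Prm2 reached 8.32 in the WT embryos, against at most 7.59 in the Parg(110)-/+ embryos. Since arrays were scaled to a common distribution, less RNA of 1 gene and more of the rest cannot be told apart.

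Of the 60 translation factors 56 had a mean at or above 6.47, the median of all probe set means. The 4 below it were Eif2s3y, Eef1akmt2, Eef1akmt3 and Eef1aknmt, and the last 3 encode methyltransferases that modify eEF1A. Of all 19935 named genes 10264 reached this median by their brightest probe set. It is not a limit of detection: Col1a2, a marker of other cells, averaged 7.21 in the Parg(110)-/+ embryos and 7.06 in the WT embryos. Near that level, with means of 7.09 to 7.43, were Eif5a2, Gspt2, Eif3d, Eef2kmt, Eif2b2, Eif4ebp1, Eif4ebp2 and Eef1a2. No member passed the test between Parg(110)-/+ and WT embryos at an adjusted p under 0.1. The same held for all 28815 probe sets (percent called 0), where the smallest adjusted p was 0.354. At an unadjusted p under 0.05 there were 3 members (Eif2b1, Eef1a2 and Etf1), and 10.5% of all probe sets. Of the 60 members 30 had the higher mean in the Parg(110)-/+ embryos and 30 the lower, with a median difference of -0.011, against a median of 0.051 and 67.1% higher over all probe sets. With arrays shifted to an equal median the split became 21 higher and 39 lower (median -0.067), against a median of -0.0051 over all probe sets. With a further quantile normalization it became 29 higher and 31 lower (median -0.0060). The share of all probe sets that were higher is not given here for either scaling. Before rescaling, probe sets at or above the median level had a median difference of 0.037.

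Split by father, 0 members were called for PargA (percent called 0), for PargB (0.0139) or for PargC (0.0104), with smallest adjusted p values among the members of 0.485, 0.136 and 0.514 by limma. At an unadjusted p under 0.05 1 member was found for PargA (5.32% of all probe sets), 5 for PargB (12.8% of all) and 3 for PargC (7.24% of all). The test for differences between fathers of 1 genotype also called 0 members (percent called 0.0139). There 6 members had an unadjusted p under 0.05, against 4.56% of all probe sets, and the smallest adjusted p was 0.963.

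**Figure D1:**
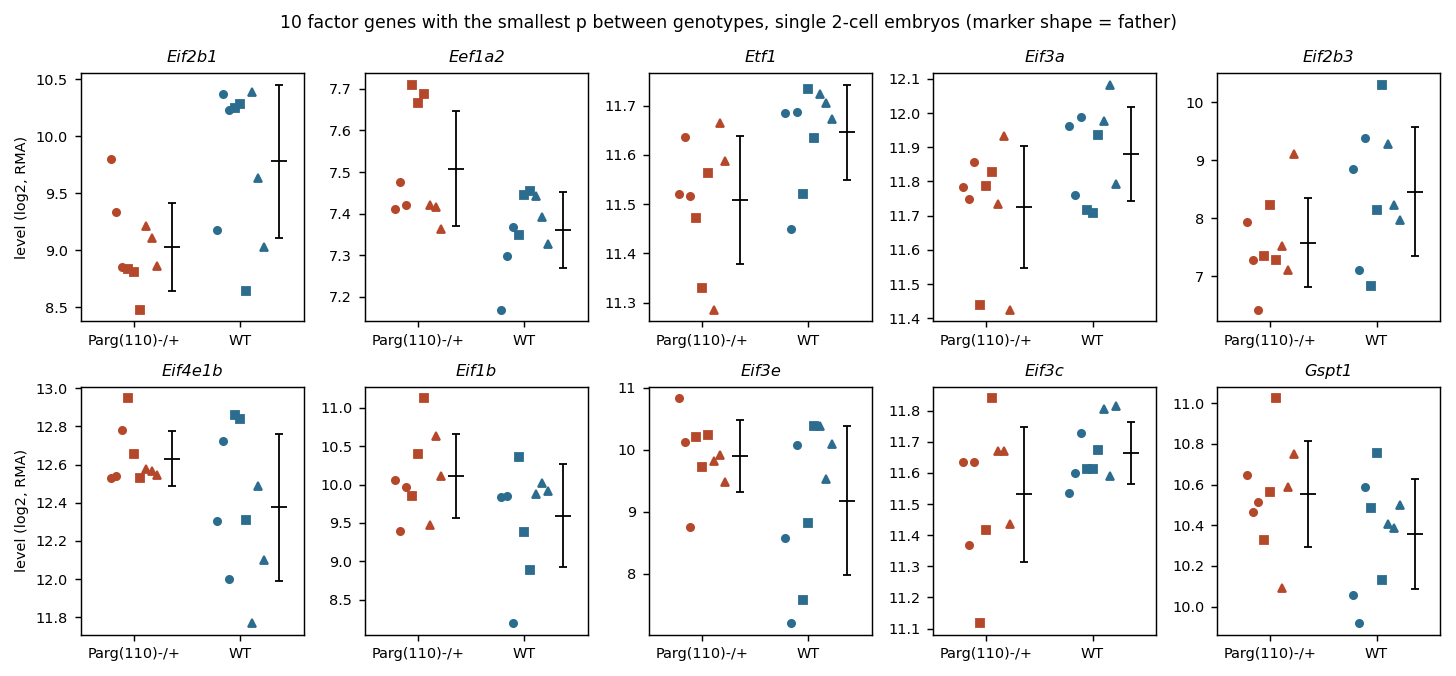
Level (log2, RMA) of the 10 factor genes with the smallest p between genotypes, 1 point per embryo, Parg(110)-/+ left and WT right; circles, squares and triangles are the fathers A, B and C or 1, 2 and 3, and the bar is mean and SD. Eif2b1 shows 5 WT embryos above all Parg(110)-/+ embryos, and the squares of Eef1a2 show the 3 PargB embryos at 7.67 to 7.71, above the other 15.

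A terminal oligopyrimidine tract, a C at the first base of the messenger RNA followed by C and T bases, is known from genes of the translation machinery and lets the cell adjust their translation to growth signals. RefSeq promoters (GRCm38.p6) were matched for 45 of the 60 members and searched on the gene's strand for a C followed by 4 or more bases that are C or T, beginning within 3 bases of the annotated start. Of these 45, 9 held such a tract (20.0%), against 13.5% of the 27025 genes in the table. They were Eif1ad, Eif2s3x, Eif2s3y, Eif2b5, Eif3b, Eif3f, Eif3l, Eif4a3l1 and Eef1a1. The match is a description of letters and not of a working element. It depends on the annotated start, so a member without a match was not shown to lack a tract. Starts are shown for the X and Y copies of the eIF2 gamma subunit, for 2 eIF3 subunits that differ in their spread, for the eIF2B subunit called in PargB-1 and for eEF1A1, each as 30 bases with the first base of the transcript at the 13th position and the tract in capitals, marked from the matching C nearest the annotated start. They lie at chrX:94212634-94212663 (minus strand), chrY:1010583-1010612, chr7:108934403-108934432, chr15:79075211-79075240 and chr16:20498805-20498834 (all plus strand), and chr9:78481707-78481736 (minus strand), in the order printed.
Eif2s3x: ccgagcattttcCTTTTCTCTCCgagcaag
Eif2s3y: gaggccacagccaCTTCCTTCTTTCgtgag
Eif3f: gttctaggctctCTCTCTTTCTCggcaaga
Eif3l: cggagttcttCTTCCgctctctcccacggg
Eif2b5: tcctctttctCTCCCTgcaactacaccttc
Eef1a1: ggctccgccctCTTCCCgagggtgggggag
The capitals of Eif2s3x and Eif3f begin at the annotated first base and are each 11 bases long, and those of Eif2s3y begin 1 base after it and are 12 bases long. An unbroken run of C and T bases goes on before the capitals for 5 bases in Eif2s3x and Eif3l, 4 in Eif3f and Eef1a1 and 15 in Eif2b5, and for 0 in Eif2s3y. The SDs over the embryos were 0.19 to 1.14 (median 0.71) in the 9 members with a match. In the 36 without a match they were 0.056 to 1.26 (median 0.31). Of the 9, 3 had a higher and 6 a lower mean in Parg(110)-/+ than in WT embryos (median difference -0.083). Of those without a match 20 had a higher and 16 a lower mean (median 0.0089). The 9 therefore covered much of the same range as the rest.

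The start codon is selected by eIF1 and eIF1A, which keep the scanning ribosome open until it is found. Genes entered this class by a symbol beginning with Eif1, and Eif1ad is in it on that ground alone. The mean levels over all embryos were 7.64 for Eif1a, 9.30 for Eif1ad, 10.71 for Eif1ax and 9.85 for Eif1b, and 3 of the 4 had the higher mean in the Parg(110)-/+ embryos (2 of 4 with equal array medians). Eif1b, a close relative of the eIF1 gene, ranged from 9.40 to 11.13 (median 10.07) in the Parg(110)-/+ embryos and from 8.19 to 10.36 (median 9.86) in the WT embryos. Its difference was 0.52 ± 0.28 (SE, adjusted p = 0.505, limma). WT1-3 and WT2-3 were the lowest embryos for Eif1b, the difference without WT1-3 was 0.35, and 7 of the 9 Parg(110)-/+ embryos lay above the WT mean. Eif1a, which in mouse is transcribed as the embryonic genome becomes active, ranged from 7.09 to 8.17 (median 7.60) in the Parg(110)-/+ embryos, against 6.98 to 8.46 (median 7.68) in the WT embryos. The difference was 0.0053 ± 0.19 (adjusted p = 0.995, limma), its sign turned in several alternatives, and the groups overlapped throughout. Its X-linked relative Eif1ax ranged from 10.54 to 11.11 (median 10.79) in the Parg(110)-/+ embryos and from 10.30 to 10.92 (median 10.69) in the WT embryos, a difference of 0.14 ± 0.094 (adjusted p = 0.574, limma). The SD over the 18 embryos was 0.41 for Eif1a and 0.21 for Eif1ax.

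Among the genes that deliver the initiator tRNA the mean levels were 9.94 for Eif2a and 8.08 for Eif2d, which encode alternative initiator tRNA factors outside the trimer, 11.88 for Eif2s2, the beta subunit, and 11.92 for Eif2s3x. The gamma subunit, which binds GTP and the tRNA, is encoded by a gene on each sex chromosome in mouse. Eif2s3x ranged from 11.53 to 12.23 (median 11.998) in the Parg(110)-/+ embryos, against 11.50 to 12.23 (median 11.83) in the WT embryos, with a difference of 0.079 ± 0.10 (adjusted p = 0.789, limma). Eif2s3y ranged from 3.71 to 6.95 (median 4.04) in the Parg(110)-/+ embryos and from 3.77 to 7.28 (median 4.72) in the WT embryos, with a difference of -0.27 ± 0.52 (adjusted p = 0.862, limma). The SD over the 18 embryos was 0.22 for Eif2s3x and 1.14 for Eif2s3y. PargC-2 at 6.95 and PargC-3 at 5.56 were the highest Parg(110)-/+ embryos for Eif2s3y, and WT3-2 at 7.28, WT2-1 at 6.41 and WT2-3 at 5.31 the highest WT embryos.

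The exchange factor eIF2B is a complex of 5 kinds of subunit that reloads eIF2 with GTP. The mean levels were 9.41 for Eif2b1, 7.25 for Eif2b2, 8.02 for Eif2b3, 8.51 for Eif2b4 and 8.97 for Eif2b5. The class had the lowest median difference of the 11, -0.32, with 4 of 5 genes lower in the Parg(110)-/+ embryos (3 of 5 after a further quantile normalization), and 0 of 5 passed the test. Eif2b1, the alpha subunit, ranged from 8.48 to 9.80 (median 8.86) in the Parg(110)-/+ embryos, against 8.64 to 10.39 (median 10.23) in the WT embryos. Its difference of -0.75 ± 0.25 (adjusted p = 0.362, limma) had the smallest unadjusted p of all members, 0.00759, and 8 of 9 Parg(110)-/+ embryos lay below the WT mean. The 5 embryos of WT1-2, WT1-3, WT2-1, WT2-2 and WT3-1 stood between 10.23 and 10.39, above every Parg(110)-/+ embryo, while WT1-1, WT2-3 and WT3-3 lay at 8.64 to 9.18 within the range of the Parg(110)-/+ embryos. By father the difference from the WT embryos was -0.45 for PargA, -1.07 for PargB and -0.72 for PargC, with adjusted p values of 0.997, 0.264 and 0.701 by limma.

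Eif2b3, the gamma subunit of eIF2B, ranged from 6.41 to 9.10 (median 7.35) in the Parg(110)-/+ embryos and from 6.83 to 10.31 (median 8.23) in the WT embryos. The difference was -0.88 ± 0.43 (adjusted p = 0.487, limma), with 8 of 9 Parg(110)-/+ embryos below the WT mean and only PargC-3 above it. Eif2b5, the catalytic epsilon subunit, ranged from 7.17 to 9.998 (median 8.89) in the Parg(110)-/+ embryos, against 8.41 to 9.69 (median 9.14) in the WT embryos, a difference of -0.32 ± 0.32 (adjusted p = 0.71, limma). Its lowest embryo was PargB-1, without which the difference was -0.12, and PargB-3 and PargC-3 lay above all WT embryos. Eif2b2, the beta subunit, ranged from 6.25 to 9.68 (median 6.90) in the Parg(110)-/+ embryos, against 6.48 to 8.21 (median 7.02) in the WT embryos, a difference of 0.18 ± 0.37 (adjusted p = 0.876, limma). That positive difference rested on PargA-1 at 9.68, and without this embryo it was -0.12.

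The scaffold eIF3 is the largest initiation factor and links the small ribosomal subunit to the eIF4 factors on the messenger RNA. The mean levels over all embryos were 11.80 for Eif3a, 10.45 for Eif3b, 11.60 for Eif3c, 7.17 for Eif3d, 9.54 for Eif3e, 9.36 for Eif3f, 12.22 for Eif3h, 10.62 for Eif3i, 9.87 for Eif3k, 7.90 for Eif3l and 9.40 for Eif3m. Of the 11 subunits 8 had the lower mean in the Parg(110)-/+ embryos and 3 the higher under all 3 scalings, with a median difference of -0.13, and 0 passed the test. Eif3a, a core scaffold subunit, ranged from 11.42 to 11.93 (median 11.78) in the Parg(110)-/+ embryos, against 11.71 to 12.08 (median 11.94) in the WT embryos. The difference was -0.15 ± 0.075 (adjusted p = 0.485, limma), with PargB-1 and PargC-3 lowest of all. Eif3c, another core subunit, ranged from 11.12 to 11.84 (median 11.63) in the Parg(110)-/+ embryos and from 11.54 to 11.81 (median 11.61) in the WT embryos, a difference of -0.13 ± 0.080 (adjusted p = 0.552, limma). For Eif3c 4 Parg(110)-/+ embryos (PargA-2, PargB-1, PargB-2 and PargC-3) lay below all WT embryos, and without PargB-1 the difference was -0.080.

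Eif3e differed in the other direction and ranged from 8.75 to 10.84 (median 9.91) in the Parg(110)-/+ embryos, against 7.20 to 10.39 (median 9.53) in the WT embryos. The difference was 0.72 ± 0.43 (adjusted p = 0.545, limma). It came with a wider spread in the WT embryos, where the SD was 1.21 against 0.58 in the Parg(110)-/+ embryos, and where WT1-2 and WT2-1 lay at 7.20 and 7.58, and without WT1-2 the difference was 0.47. Eif3l and Eif3m were among the 10 members with the largest SD. Eif3l ranged from 6.10 to 8.93 (median 7.75) in the Parg(110)-/+ embryos, against 6.51 to 9.78 (median 8.42) in the WT embryos, a difference of -0.67 ± 0.43 (adjusted p = 0.568, limma). Eif3m ranged from 7.10 to 10.68 (median 8.97) in the Parg(110)-/+ embryos, against 7.80 to 11.07 (median 9.87) in the WT embryos, a difference of -0.56 ± 0.51 (adjusted p = 0.683, limma). PargB-1 was the lowest of all 18 embryos for Eif3l and for Eif3m, and without it the Eif3m difference was -0.31. The second probe set naming Eif3m alone had a difference of -0.13.

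Over the 18 embryos several eIF3 subunits went up and down together. The median Pearson r over the 55 pairs of eIF3 subunits was 0.24, with 45 pairs above 0 and 12 above 0.5. The same median was 0.059 over the 187 pairs of members within a class, 0.013 over the 1583 pairs between classes and 0.013 over pairs of all 10264 named genes at or above the median level. The median within classes had a jackknife SE of 0.047 over the embryos, about as large as its distance from the median between classes. Eif3l had the highest median r with the other subunits, 0.50, and its closest partners among them were Eif3m at 0.74, Eif3c at 0.70 and Eif3i at 0.68. Eif3f, Eif3k and Eif3e had the lowest, with median r of -0.024, 0.097 and 0.12. Pairs across classes reached like values, such as Eif4ebp1 with Eif2b2 at 0.80, above every eIF3 pair, Eif4e2 with Eif3m at 0.70 and Eef2 with Eif3l at 0.69. These correlations are descriptions over 18 points that share their normalization, and the second probe set of Eif3m followed the first at r = 0.67. The eIF3 median was not recomputed without single embryos. PargB-1 was the lowest of the 18 for Eif3c, Eif3d, Eif3l and Eif3m alike, and how far 1 embryo carries these values was not tested. The class with the next highest median r was eIF2B, at 0.12 over 10 pairs, where Eif2b4 and Eif2b5 reached 0.71.

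**Figure D2:**
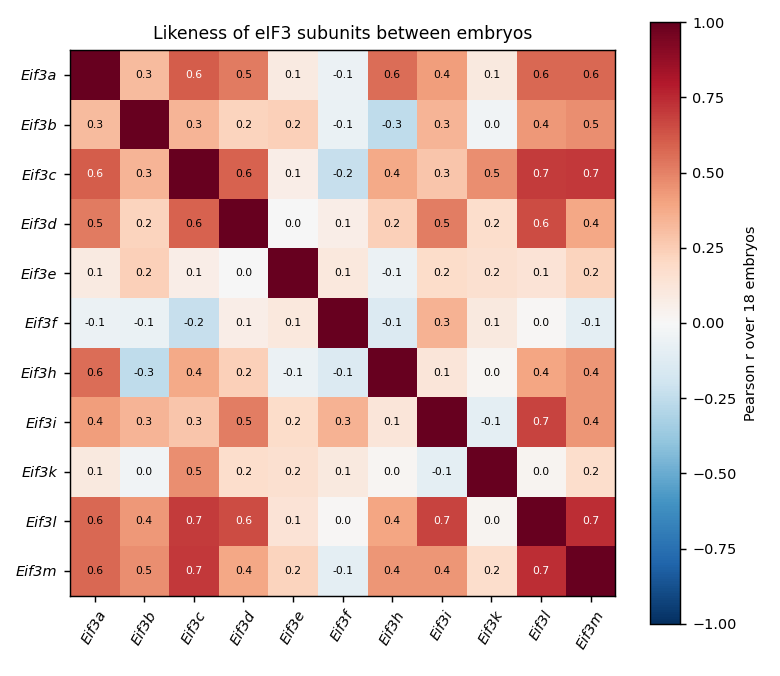
Pearson r over the 18 embryos between the levels of the 11 eIF3 subunits, each cell 1 pair and the colour scale running from -1 to 1. Among Eif3a, Eif3c, Eif3d, Eif3i, Eif3l and Eif3m the values run from 0.28 for Eif3c with Eif3i to 0.74 for Eif3l with Eif3m. This grouping was read from the same values and has no sharp edge. Eif3h reaches 0.56 with Eif3a and Eif3b 0.46 with Eif3m, while Eif3b with Eif3h is at -0.26. The pairs of Eif3e, Eif3f and Eif3k reach at most 0.46, for Eif3c with Eif3k.

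At the cap, eIF4E binds the modified 5′ end, the eIF4G proteins bridge it to eIF3, and eIF4A with eIF4B and eIF4H unwinds the leader. The mean levels were 12.07 for Eif4a1, 11.62 for Eif4a2, 11.67 for Eif4a3, 9.66 for Eif4a3l1, 10.96 for Eif4b, 12.26 for Eif4e, 12.50 for Eif4e1b, 8.73 for Eif4e2, 11.42 for Eif4e3, 12.25 for Eif4g2, 8.15 for Eif4g3 and 10.40 for Eif4h. Of the 12 genes 5 had the higher and 7 the lower mean in the Parg(110)-/+ embryos (4 and 8 with equal array medians). Eif4e1b, an eIF4E relative of oocytes that binds stored messenger RNA, ranged from 12.53 to 12.95 (median 12.56) in the Parg(110)-/+ embryos, against 11.77 to 12.86 (median 12.31) in the WT embryos. The difference was 0.25 ± 0.13 (adjusted p = 0.503, limma), and all 9 Parg(110)-/+ embryos lay above the WT mean. The SD was 0.14 in the Parg(110)-/+ embryos against 0.38 in the WT embryos, where WT3-1 was lowest at 11.77. A second probe set naming Eif4e1b alone had a difference of 0.36 and followed the first over the embryos at r = 0.79.

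Eif4a3l1, a gene resembling the exon junction helicase Eif4a3, ranged from 8.74 to 10.93 (median 9.62) in the Parg(110)-/+ embryos, against 8.54 to 10.95 (median 9.09) in the WT embryos, a difference of 0.17 ± 0.37 (adjusted p = 0.882, limma). Eif4h ranged from 8.61 to 11.48 (median 10.46) in the Parg(110)-/+ embryos, against 9.71 to 10.96 (median 10.48) in the WT embryos, a difference of -0.18 ± 0.27 (adjusted p = 0.823, limma). PargC held both extremes of Eif4h, PargC-3 at 8.61 and PargC-1 at 11.48. Eif4e3, a cap-binding relative of eIF4E, had the smallest p of the members between fathers, 0.00122 unadjusted and 0.963 adjusted. Its difference from the WT embryos was -0.63 ± 0.14 in the PargA embryos, -0.26 in the PargB embryos and 0.33 in the PargC embryos, with adjusted p values of 0.485, 0.459 and 0.644 by limma. Among the repressors that compete for eIF4E or shuttle it, the mean levels were 7.27 for Eif4ebp1, 7.34 for Eif4ebp2 and 11.25 for Eif4enif1, and their differences ran from -0.046 to 0.061.

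At subunit joining, eIF5 triggers GTP hydrolysis on eIF2, eIF5B joins the large subunit and eIF6 keeps free large subunits apart. The mean levels were 12.004 for Eif5, 11.66 for Eif5b and 10.59 for Eif6, and the 3 differences between Parg(110)-/+ and WT embryos ran from -0.072 to 0.0007. This class had the smallest median SD over the embryos, 0.096, at high levels, where probe sets in general vary less. eIF5A, the factor that carries hypusine and helps at stalling codons, was at a mean level of 11.29 for Eif5a and 7.09 for Eif5a2. Eif5a ranged from 10.86 to 11.47 (median 11.33) in the Parg(110)-/+ embryos, against 10.95 to 11.71 (median 11.36) in the WT embryos, a difference of -0.094 ± 0.11 (adjusted p = 0.75, limma), and its second probe set had a difference of 0.020. Its paralog Eif5a2 ranged from 6.53 to 9.45 (median 7.07) in the Parg(110)-/+ embryos, against 6.43 to 7.26 (median 6.91) in the WT embryos, a difference of 0.44 ± 0.31 (adjusted p = 0.596, limma). PargC-3 at 9.45 stood above all other embryos, and PargB-3 followed at 7.94. Without PargC-3 the difference of Eif5a2 was 0.18.

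During elongation eEF1A delivers aminoacyl-tRNA, the eEF1B subunits reload it with GTP, and eEF2 moves the ribosome along. The mean levels were 12.09 for Eef1a1, 7.43 for Eef1a2, 10.25 for Eef1b2, 9.29 for Eef1d, 9.23 for Eef1e1 and 11.13 for Eef2. Eef1a2, in adults the form of neurons and muscle, ranged from 7.36 to 7.71 (median 7.42) in the Parg(110)-/+ embryos, against 7.17 to 7.45 (median 7.37) in the WT embryos. Its difference of 0.15 ± 0.058 had an unadjusted p of 0.0211 (adjusted p = 0.423, limma), and all 9 Parg(110)-/+ embryos lay above the WT mean. The PargB embryos stood at 7.67 to 7.71, above every other embryo, and their difference from the WT embryos was 0.33 (adjusted p = 0.136, limma). Without father PargB the difference between genotypes was 0.058. Eef1a1 ranged from 11.78 to 12.46 (median 12.04) in the Parg(110)-/+ embryos, against 11.91 to 12.46 (median 12.14) in the WT embryos, a difference of -0.083 ± 0.090 (adjusted p = 0.739, limma). For Eef1a1 the PargC embryos lay lowest, at 11.78 to 11.87, with a difference of -0.31 (adjusted p = 0.514, limma), while that of the PargA embryos was 0.13. Eef1e1, a scaffold protein of the multisynthetase complex that carries an elongation factor symbol, ranged from 7.26 to 11.02 (median 9.67) in the Parg(110)-/+ embryos, against 7.23 to 10.71 (median 9.34) in the WT embryos, a difference of 0.19 ± 0.58 (adjusted p = 0.917, limma).

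Among the enzymes that modify the elongation factors, the mean levels at or above the median were 8.89 for Eef1akmt1, 8.15 for Eef2k, the kinase that inhibits eEF2, and 7.20 for Eef2kmt. Eef1akmt1, a lysine methyltransferase of eEF1A, had the largest SD of the 60 genes, 1.32. It ranged from 7.11 to 11.27 (median 9.46) in the Parg(110)-/+ embryos and from 6.67 to 10.55 (median 9.13) in the WT embryos, a difference of 0.18 ± 0.61 (adjusted p = 0.924, limma). Eef1akmt2 ranged from 4.22 to 7.11 (median 4.46) in the Parg(110)-/+ embryos, against 4.01 to 7.63 (median 4.27) in the WT embryos, a difference of 0.26 ± 0.49 (adjusted p = 0.861, limma). Only PargC-2 at 7.11, PargA-1 at 6.23 and WT1-1 at 7.63 exceeded 6 for Eef1akmt2, so high values occurred in both genotypes.

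At release eRF1, encoded by Etf1, reads the stop codon, and eRF3, encoded by Gspt1 or Gspt2, is its GTPase partner. The mean levels were 11.58 for Etf1, 10.46 for Gspt1 and 7.09 for Gspt2. Etf1 ranged from 11.28 to 11.67 (median 11.52) in the Parg(110)-/+ embryos, against 11.45 to 11.73 (median 11.68) in the WT embryos. The difference was -0.14 ± 0.057 with an unadjusted p of 0.0275 (adjusted p = 0.443, limma), and 8 of 9 Parg(110)-/+ embryos lay below the WT mean. Gspt1 ranged from 10.09 to 11.03 (median 10.56) in the Parg(110)-/+ embryos, against 9.92 to 10.76 (median 10.41) in the WT embryos, a difference of 0.19 ± 0.12 (adjusted p = 0.564, limma). The X-linked Gspt2 ranged from 6.28 to 8.66 (median 7.28) in the Parg(110)-/+ embryos, against 5.98 to 7.75 (median 6.91) in the WT embryos, a difference of 0.52 ± 0.34 (adjusted p = 0.584, limma). The Parg(110)-/+ embryos PargC-2, PargB-1 and PargA-3 lay above all WT embryos for Gspt2.

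To compare the classes without setting probe sets against each other, each gene's level was taken as its deviation from its own mean over the 18 embryos, and these deviations were averaged over the genes of a class. The eIF2B score was -0.18 ± 0.48 in the Parg(110)-/+ embryos and 0.18 ± 0.30 in the WT embryos (SD, n = 9 each). Its difference of -0.36 was the largest in size of the 11 classes and less than the pooled SD of 0.40. For this score 5 of 9 Parg(110)-/+ embryos lay below all WT embryos, with PargB-1 lowest at -0.94, while PargA-1 lay at 0.63. The eIF3 score was -0.054 ± 0.34 in the Parg(110)-/+ embryos and 0.054 ± 0.32 in the WT embryos, again with PargB-1 lowest at -0.62 and with PargA-1 highest at 0.54. Its difference of -0.11 was -0.037 without PargB-1 and -0.18 without PargA-1. The release score was 0.095 ± 0.29 in the Parg(110)-/+ embryos and -0.095 ± 0.23 in the WT embryos, and 3 of 9 Parg(110)-/+ embryos lay above all WT embryos. The remaining 8 classes differed by -0.039 to 0.17. Over all 60 genes the score was -0.0099 ± 0.11 in the Parg(110)-/+ embryos and 0.0099 ± 0.10 in the WT embryos. Each of the 11 class differences was smaller than the pooled SD of its class. That SD is the spread of single embryos and not the SE of the difference, so this is not a test.

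**Figure D3:**
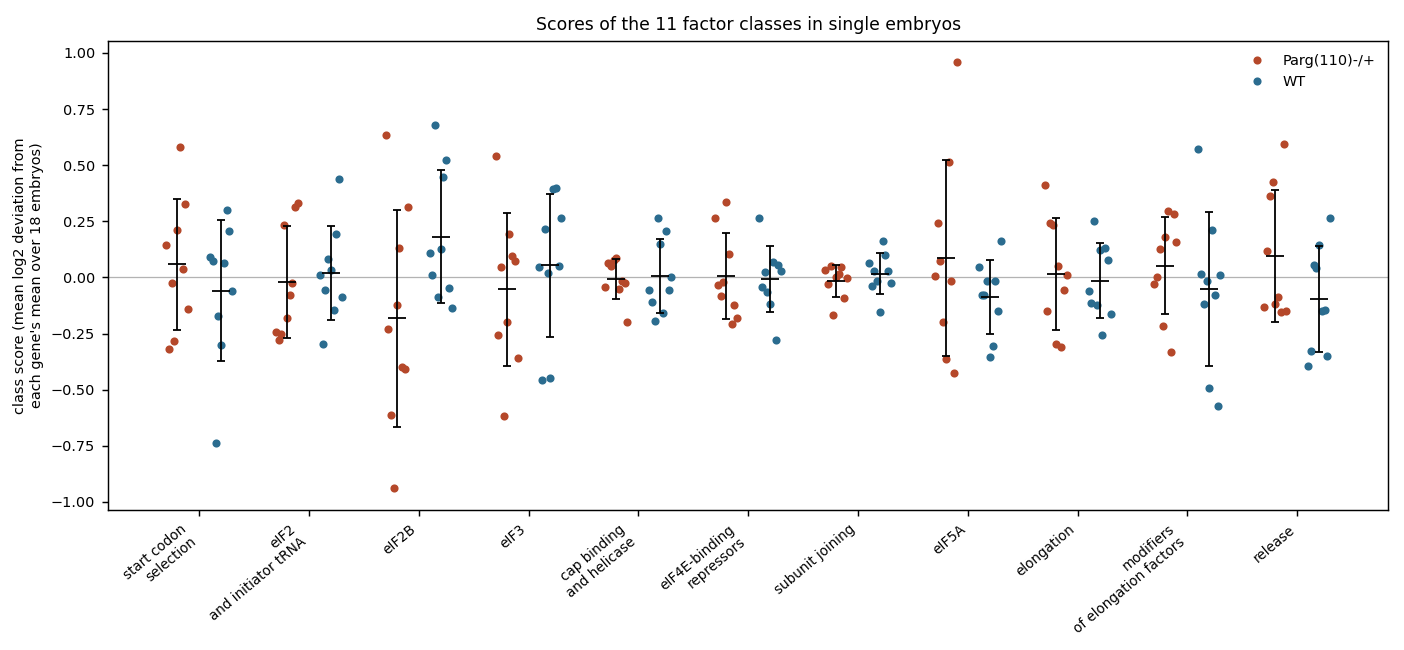
Class score (mean log2 deviation of the class's genes from their own means over the 18 embryos) of the 11 factor classes, 1 point per embryo, Parg(110)-/+ left and WT right in each pair, with mean and SD. The eIF2B scores run from -0.94 to 0.63 in the Parg(110)-/+ embryos and from -0.13 to 0.68 in the WT embryos, and the cap binding scores stay within -0.20 and 0.27.

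Members differed widely in their spread between embryos. The SD over the 18 embryos had a median of 0.33 over the members and ran from 0.049 for Eif4g2, an eIF4G relative that works without eIF4E, to 1.32 for Eef1akmt1. Probe sets at or above the median level had a median SD of 0.32, and 30 of the 60 members lay above the median SD of probe sets of like level. The SD exceeded 1 in 6 members (Eef1akmt1, Eef1e1, Eif2s3y, Eif3m, Eef1akmt2 and Eif2b3), against 5.17% of all probe sets. It was under 0.2 in 15 of the 60 members, which is common on this array. Of all probe sets, 47.2% had an SD below the 0.19 of Eef1a1. Eif5, Eif4e, Eif5b and Eif4g2 had the smallest SDs, each under 0.1. For Eif4e this holds for the chosen probe set, since the other 2 naming it alone had SDs of 0.32 and 1.03. By class the median SD was largest in eIF2B at 0.71, followed by start codon selection at 0.53, and smallest in subunit joining at 0.096. Spread changes with level over all probe sets, with a median SD of 0.57 near a level of 8.75 and 0.19 near 11.75. The eIF2B genes had mean levels of 7.25 to 9.41 and the subunit joining genes of 10.59 to 12.004, so this ranking is not one at like level. Within eIF3 the SD ran from 0.17 for Eif3a to 1.13 for Eif3m, while probe sets of like level had median SDs of 0.19 and 0.53.

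**Figure D4:**
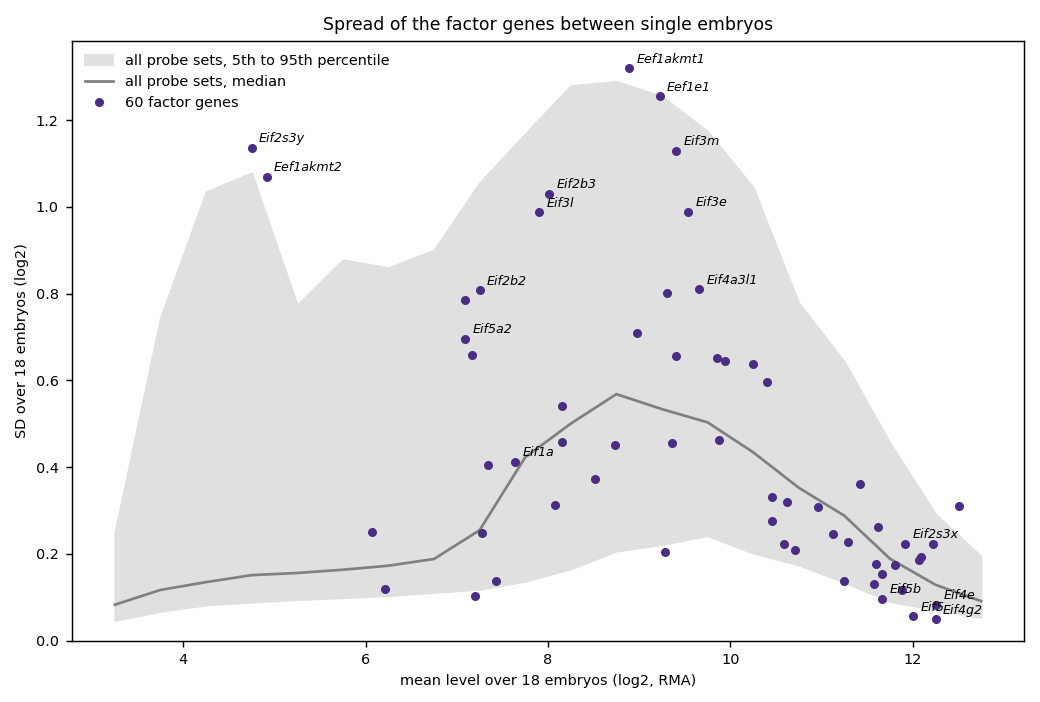
SD over the 18 embryos against mean level (both log2) for the 60 factor genes, with the median (line) and the 5th to 95th percentile (shade) of all probe sets in steps of level. Eef1akmt1 at 1.32 and Eef1e1 at 1.26 are highest, Eif2s3y lies above the shade at low level, and Eif4g2 and Eif5 lie lowest at high level.

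Each Parg(110)-/+ embryo was also set against the 9 WT embryos. Members called at an adjusted p under 0.1 numbered 2 in PargB-1 (percent called 2.17) and 2 in PargC-3 (percent called 0.843). The count was 0 in PargA-1 (0.628), PargA-2 (0.635), PargA-3 (0.604), PargB-2 (0.691), PargB-3 (0.826), PargC-1 (0.76) and PargC-2 (0.625), the percent called over all probe sets standing in parentheses. At an unadjusted p under 0.05 the 9 embryos gave 40 calls of members together, 7.41% of the pairs of member and embryo, against 7.22% over all probe sets. In PargB-1, Eif2b5 was 7.17 against a WT mean of 9.13 ± 0.45 (SD), a difference of -1.97 ± 0.44 (SE, adjusted p = 0.0731, limma), and Eif3c was 11.12 against 11.66 ± 0.098, a difference of -0.55 ± 0.12 (adjusted p = 0.0663, limma). In PargC-3, Eif4h was 8.61 against a WT mean of 10.48 ± 0.37, a difference of -1.87 ± 0.36 (adjusted p = 0.0677, limma), and Eif5a2 was 9.45 against 6.87 ± 0.23, a difference of 2.58 ± 0.23 (adjusted p = 6.43e-04, limma). Eif5a2 was called in PargC-3 whichever WT embryo was left out and under both other scalings and the filter on dim probe sets. The call of Eif2b5 was lost without WT1-1, WT1-3, WT2-3 or WT3-3, that of Eif3c without WT2-3 or with bright probe sets only, and that of Eif4h without WT1-1, WT1-2, WT2-2, WT3-2 or WT3-3, with bright probe sets only or with equal array medians.

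The same comparison was made for each WT embryo against the other 8. It also called 4 members over 9 embryos, so 0.741% of the 540 pairs of member and embryo were called in each genotype. At an unadjusted p under 0.05 the WT embryos gave 35 calls of members, 6.48% of the pairs, against 5.81% over all probe sets. Over all probe sets the percent called was 0.865 in the Parg(110)-/+ embryos and 0.731 in the WT embryos. The WT calls were Eif4ebp2 in WT1-1 (8.34, difference 1.10, adjusted p = 0.0397, limma), Eef1akmt2 in WT1-1 (7.63, difference 3.20, adjusted p = 0.0185, limma), Eif4e2 in WT1-2 (7.59, difference -1.35, adjusted p = 0.0275, limma) and Eif2b4 in WT3-2 (7.43, difference -1.24, adjusted p = 0.00308, limma). A lone embryo is assumed here to vary like the WT embryos, and amplification of 1 embryo's RNA and its biology cannot be told apart.

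**Figure D5:**
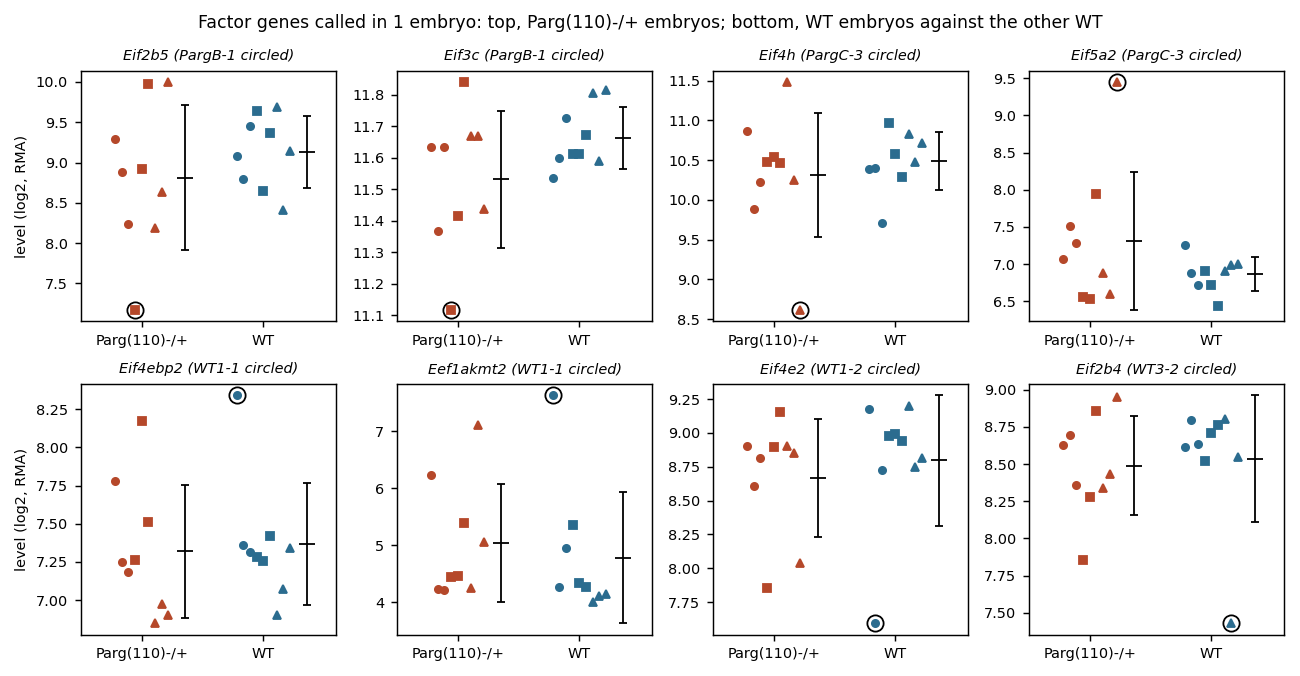
Level (log2, RMA) in each embryo of the 8 factor genes called in 1 embryo, Parg(110)-/+ left and WT right, with mean and SD and the called embryo circled. The upper row holds the calls in PargB-1 and PargC-3, such as Eif5a2 at 9.45 in PargC-3, and the lower row those in WT embryos, such as Eef1akmt2 at 7.63 in WT1-1.

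Genes that act on the translation factors were taken from a list of 41, of which 38 were measured. None passed the test between Parg(110)-/+ and WT embryos (smallest adjusted p = 0.398, limma), 18 had the higher and 20 the lower mean in the Parg(110)-/+ embryos, and the median difference was -0.0081. At an unadjusted p under 0.05 there were 3 of the 38, against 10.5% of all probe sets. Rptor, the scaffold of the mTOR complex that regulates cap-dependent initiation, averaged 6.31 in the Parg(110)-/+ embryos and 6.12 in the WT embryos. Its difference was 0.20 ± 0.071 (adjusted p = 0.398, limma). Eif2ak1, the eIF2 kinase that senses haem, averaged 9.25 in the Parg(110)-/+ embryos and 9.85 in the WT embryos, a difference of -0.60 ± 0.25 (adjusted p = 0.44, limma). Tsfm, the mitochondrial exchange factor for EF-Tu, averaged 6.96 in the Parg(110)-/+ embryos and 6.74 in the WT embryos, a difference of 0.22 ± 0.090 (adjusted p = 0.443, limma). By list the counts of higher and lower means were 3 and 3 for the eIF2 kinases and the phosphatase arms that reverse them, 5 and 2 for mTOR and cap control, 1 and 4 for poly(A)-binding, 2 and 3 for recycling and rescue, 2 and 3 for the makers of hypusine and diphthamide, 4 and 4 for mitochondrial factors and 1 and 1 for selenocysteine.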

How the data were processed

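Per the labels and the study's methods, RNA of single 2-cell embryos was amplified with the WT-Ovation One-Direct kit and hybridized to Affymetrix Mouse Gene 1.0 ST arrays. The deposited log2 values were made by the authors with RMA in Partek Genomics Suite (background correction, quantile normalization, log2 transformation, probe set summarization); the sources used here give no tool versions. No array file before RMA was used. Quantile normalization can hide a change shared by most genes, and RMA compresses differences of dim probe sets. Genes were named from the platform annotation: of 28815 probe sets 21780 name 1 gene, 1605 several, and 5430 are unlisted. Probe positions were not used here.

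Groups came from the labels. Linear models (lmFit and eBayes of limma 3.58.1, R 4.3.3) were fitted over all probe sets with two-sided tests, Benjamini-Hochberg adjustment and a call at 0.1, for genotype, for each father's embryos against WT, for differences between fathers within a genotype (F test) and for each embryo against WT. The fits were tested on simulated data. Differences are Parg(110)-/+ minus WT. Embryos of 1 father are not independent of it; alternatives were array scaling, a filter on dim probe sets, father as a random block or as the unit, the methods' one-way test, and leaving out each embryo or father. The comparison of each WT embryo with the other 8 was chosen after seeing the data. The members, the gene lists and the tests were chosen with earlier results of these data known. Full values were given for the 10 members with the smallest p between genotypes, those called in any embryo, the 10 with the largest SD, and the named paralog pairs; the tract search, Eif4e3, the members called in WT embryos and the named pathway genes were chosen after values were seen.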

Additional observations from a re-analysis of the deposited data

Results flagged for a closer look

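A sample far from the other 8 of its genotype was found for 13 of the 142 sets of 9 values tested (60 genes and 11 class scores in 2 genotypes), 5 in the Parg(110)-/+ embryos and 8 in the WT embryos. The test used Dixon's ratio of the gap to the range, which flags about 1 set in 20 by chance.

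In the Parg(110)-/+ embryos, Eif5a2 stood at 9.45 in PargC-3, with the next embryo at 7.94. Eif3i was 11.30 in PargA-1, next to 10.69. Eif4e was 12.49 in PargC-1, next to 12.30, and Eif5 was 11.89 in PargA-3, next to 11.97, both on a narrow range. The cap binding score was -0.20 in PargC-3, next to -0.051, and this class holds Eif4h, which was called in that embryo.

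In the WT embryos, WT3-1 was high for Eif2s2 (12.16, next to 11.96), Eif4e (12.38, next to 12.28) and Eif4g2 (12.36, next to 12.29). WT1-1 was high for Eef1akmt2 (7.63, next to 5.36) and Eif4ebp2 (8.34, next to 7.42). Eif2b4 was low in WT3-2 (7.43, next to 8.52), Eif4e2 was low in WT1-2 (7.59, next to 8.73) and Eif4a1 was low in WT2-3 (11.63, next to 12.05).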

How the results depend on the processing

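No member was called between genotypes, for any father's embryos or between fathers under any alternative run. No class difference moved by as much as the pooled SD of its class, a loose limit that leaving out 1 embryo could hardly reach. Each is smaller than that SD, so its sign could still turn. It did, when 1 embryo was left out, for eIF2 (-0.083 to 0.013), cap binding (-0.037 to 0.020), eIF4E-binding repressors (-0.027 to 0.048) and elongation (-0.020 to 0.0705). The difference over all members ran from -0.044 to 0.0018. The median SD of the members was 0.32 to 0.34 when 1 embryo was left out. The median r within classes, 0.059, was 0.035 without PargA-1, 0.038 without PargB-1, at most 0.082 without another embryo and 0.094 with equal array medians. No paired analysis was possible because the fathers of the 2 genotypes carry different numbers. Of 808 differences of the 27 named members under alternatives, 782 kept their sign, and the smallest adjusted p was 0.305 by limma with father as a random block (correlation within fathers -0.023). Father as a random block or as the unit, the one-way test and the filter on dim probe sets cannot change a difference in this balanced design. The signs under them were kept by construction, and the count of 782 includes them. The number of members called in single embryos, 4, was 2 with bright probe sets only and 2 to 5 when 1 embryo was left out, being 2 without PargB-1, PargC-3 or WT3-3. Leaving out 1 embryo turned the sign of Eif4h (-0.32 to 0.036), Eef1akmt1 (-0.10 to 0.42), Eef1e1 (-0.051 to 0.45), Eif2s3y (-0.56 to 0.028), Eef1akmt2 (-0.0015 to 0.61), Eif2b2 (-0.12 to 0.31) and Eif1a (-0.077 to 0.11). Without a father, the difference was -0.037 for Eef1akmt1 and -0.093 for Eef1akmt2 (without WT3), -0.24 for Eif4a3l1 (without WT1), -0.11 for Eif2b2 (without PargA), 0.030 for Eef1a1 (without PargC), and -0.033, -0.17 and -0.085 for Eif1a (without WT1, WT2 and PargC). With equal array medians Eif1a was at -0.051. Without a change of sign, the difference moved by over 1.5 times for Eif3m (-0.92 without WT1, -0.24 without WT3), Eif3e (0.44 without WT1, 1.13 without WT3), Eif4e1b (0.40 without WT2, 0.13 without WT3), Eif3l (-0.42 without PargB), Gspt1 (0.11 without WT1), Eif5a2 (0.28 without PargC) and others of small size. The cause was not tested. Dim probe sets near background limit Eif2s3y, Eef1akmt2, Eef1akmt3 and Eef1aknmt. Members with means of 7.09 to 7.43, Eef1a2 among them, lie near the level of a marker of other cells.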

Other observations

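Of the members 8 had further probe sets naming the same gene alone, 10 in all. Over the 18 embryos these followed the brightest one at r of -0.15 to 0.83, and 8 of the 10 had the same sign of the difference between Parg(110)-/+ and WT embryos. The highest were the probe sets of Eif4a1 at 0.83 and 0.75 and of Eif4e1b at 0.79. Those of Eif4e stood at -0.0054 and 0.11, so the chosen probe set and the others of Eif4e did not describe the same variation.

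Further probe sets name a factor together with other genes, and no gene was named from them alone. A group of 4 probe sets names Eif1a together with 7 other genes, most of them with predicted gene symbols, and their means were 12.2 to 12.3 in the Parg(110)-/+ embryos and 12.1 to 12.2 in the WT embryos. The 2 probe sets naming Eif3j1 and Eif3j2 averaged 11.5 and 11.8 in each genotype. The probe set naming Eif5 and Snora28 averaged 4.89 ± 0.78 in the Parg(110)-/+ embryos and 6.04 ± 1.56 in the WT embryos (SD).

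Other Y-linked genes were read beside Eif2s3y, after its values were seen. In PargC-2, the highest Parg(110)-/+ embryo for Eif2s3y, Uty stood at 5.44 and Kdm5d at 5.37, the highest values of each among the Parg(110)-/+ embryos. Of the 3 highest WT embryos for Eif2s3y, WT3-2 at 7.28 had Uty at 4.63 and Kdm5d at 5.32, WT2-1 at 6.41 had Uty at 5.49, the second highest of the WT embryos, and Kdm5d at 4.88, and WT2-3 at 5.31 had Uty at 5.03 and the highest Kdm5d, 5.82. WT3-1 had the highest Uty at 5.82 and an Eif2s3y of 4.87.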
